A study of Mus musculus with 3 samples.

Results

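A set of 38 genes of ribosome biogenesis and of the nucleolus was followed in microglia of the mouse lumbar spinal cord, out of 27998 genes counted. The set is a list of gene symbols drawn up with earlier results of these data known, and all 38 symbols were found. The cells came from young adult Cx3cr1-creER-yfp heterozygous mice on a C57BL/6 background, which were naive or had undergone sciatic nerve transection 24 h or 48 h earlier. YFP is made under the Cx3cr1 promoter in these animals, so the sort also takes other cells that use Cx3cr1. The lumbar cords of 3 animals were pooled per group, the YFP (+) cells were sorted, and each group gave 1 library of droplet-based single-cell RNA sequencing (scRNA-Seq), in which a unique molecular identifier (UMI) marks each captured transcript. The deposited matrix joins the 3 libraries, whose cell barcodes end in a suffix of 1, 2 or 3. Which suffix belongs to which group is not given in the sources used here, so the libraries are called 1, 2 and 3, of unknown time point, and no library has a replicate. Differences between libraries are therefore differences between 3 libraries, without a test, and all intervals are exact 95% intervals that cover counting error only.

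The libraries held 609, 3591 and 3322 cells, with median depths of 2218, 5952 and 5742 UMIs. Library 1 stands apart by its depth, and its values are the least precise. The 9 microglia markers, such as P2ry12, Tmem119 and Csf1r, summed to between 21473 and 26082 counts per 1000000 UMIs (CPM) in the 3 libraries, and each was found in 42.3% to 99.97% of cells. The highest sum of another cell type's markers was that of 4 astrocyte genes, at 102 to 167 CPM, and the most widespread of them was found in 44.5% of cells. The 4 oligodendrocyte genes summed to 62.3 to 77.4 CPM, the most widespread in 22.5% of cells, and 3 endothelial genes to 14.9 to 35.0 CPM. The markers of monocytes, perivascular macrophages, red blood cells, lymphocytes, neutrophils and neurons stayed under 13 CPM in sum in each library. The same barcode sequence occurred in libraries 2 and 3 for 19 cells, in libraries 1 and 2 for 5 and in libraries 1 and 3 for 3.

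A ribosome is built around ribosomal RNA (rRNA), which RNA polymerase I transcribes in the nucleolus. Small nucleolar ribonucleoproteins (snoRNPs) guide the methylation and pseudouridylation of this RNA, and assembly factors fold and cut it while ribosomal proteins join, along separate routes for the small and the large subunit. Many of these factors are known targets of MYC, a transcription factor that binds the DNA letters CACGTG, called an E-box, and that drives growth in many cell types. Myc was counted at 30.5, 40.5 and 95.9 CPM in libraries 1, 2 and 3, with intervals of 21.9 to 41.4, 38 to 43.1 and 91.6 to 100.3 CPM. Library 3 thus held the highest level of Myc by more than counting error, and the set was described both between the libraries and by the Myc UMIs of single cells.

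Promoters of 300 bases, from 250 before to 50 after the annotated start site, were at hand from RefSeq (GRCm38.p6) for 32 of the 38 genes, with 40 promoters in all. CACGTG, which reads the same on both strands, was found in the promoters of 6 of these 32 genes (18.8%), and in those of 8.09% of all 27025 genes with a promoter. The set's promoters were richer in G and C, at a median of 59.5% against 52.7% over all promoters. The 6 genes are Rrn3, Nop2, Utp20, Wdr43, Pes1 and Nle1. They are shown because the set was read against Myc, with CACGTG in capitals, 5′ to 3′ on the strand of the gene. For Rrn3 and Nop2, where the letters lie before the start site, the 250 bases before it are given.
Rrn3 (chr16:13780449-13780698, plus strand): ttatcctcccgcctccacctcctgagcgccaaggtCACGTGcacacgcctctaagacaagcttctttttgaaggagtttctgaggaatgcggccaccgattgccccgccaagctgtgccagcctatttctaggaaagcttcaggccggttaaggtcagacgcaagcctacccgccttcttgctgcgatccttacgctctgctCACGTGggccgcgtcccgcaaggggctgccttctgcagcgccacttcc
Nop2 (chr6:125131633-125131882, plus strand): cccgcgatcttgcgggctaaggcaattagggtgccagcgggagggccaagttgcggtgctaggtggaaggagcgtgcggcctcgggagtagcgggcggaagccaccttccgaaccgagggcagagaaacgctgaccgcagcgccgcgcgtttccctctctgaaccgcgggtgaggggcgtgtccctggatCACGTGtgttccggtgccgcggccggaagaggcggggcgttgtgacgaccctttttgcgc
For the other 4 genes the letters lie after the start site, and 30 bases around them are given.
Utp20 (chr10:88826765-88826794, minus strand): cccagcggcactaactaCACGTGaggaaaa
Wdr43 (chr17:71616220-71616249, plus strand): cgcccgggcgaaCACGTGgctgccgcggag
Pes1 (chr11:3963965-3963994, plus strand): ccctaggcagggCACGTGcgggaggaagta
Nle1 (chr11:82908355-82908384, minus strand): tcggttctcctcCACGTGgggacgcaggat
For comparison, these are the 250 bases before the start site of Ddx21, which had the highest ratio of library 3 to library 2 among the 36 genes of the set past the filter described below. They hold no CACGTG.
Ddx21 (chr10:62602299-62602548, minus strand): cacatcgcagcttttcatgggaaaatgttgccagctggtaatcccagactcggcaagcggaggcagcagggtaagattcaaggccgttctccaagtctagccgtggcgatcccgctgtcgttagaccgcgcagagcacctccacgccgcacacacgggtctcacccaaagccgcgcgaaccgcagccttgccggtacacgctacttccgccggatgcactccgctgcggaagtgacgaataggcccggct
The first base of CACGTG lies 215 and 48 bases before the start site in Rrn3 and 60 bases before it in Nop2, and 37, 17, 2 and 23 bases after it in Utp20, Wdr43, Pes1 and Nle1. The median log2 ratio of library 3 to library 2 was 0.41 over the 6 genes with the letters and 0.43 over the 26 without them, and the ranges overlapped, at 0.29 to 0.72 and -0.30 to 0.83. A match is a run of letters in these windows, and whether MYC was bound there was not measured.

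The set stood higher in library 3 than in library 2, gene by gene, and the genes of the ribosomal proteins themselves did not share this direction. Of the 38 genes, 36 had a mean of at least 10 CPM over the 3 libraries, the filter used for counts of genes. In library 3 compared with library 2, 34 of the 36 were higher and 2 lower, where 3768 of all 8130 genes past the filter were higher. The median ratio was 1.303 (log2 0.38), against 0.98 (log2 -0.02) over all these genes. At least 1.5 times higher, with 1 CPM added to both values, were 8 of the 36 genes, where 3.28% of all genes past the filter were, and 0 of the 36 were at least 1.5 times lower, where 5.13% of all genes were. The intervals lay above 1 for 32 genes and below 1 for 2. The share of all genes with an interval off 1 was not counted, and in other lists most intervals were off 1 as well. Of 80 cytosolic ribosomal protein genes, 76 had an interval below 1 and 2 above it. Of 110 other ribosome biogenesis genes, 69 had an interval above 1 and 8 below it. Most genes of the set were thus somewhat higher in library 3, and fewer were past 1.5 times.

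**Figure D1:**
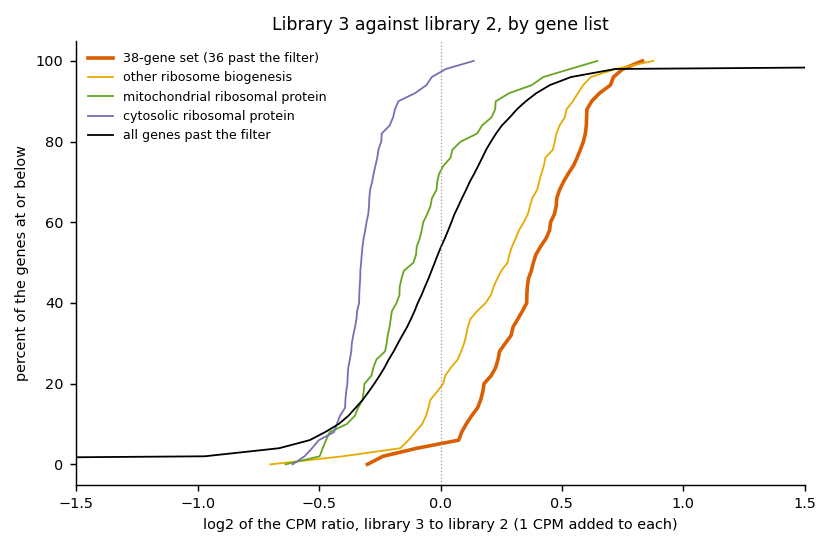
Cumulative distribution of the log2 CPM ratio of library 3 to library 2 (x axis, log2, 1 CPM added) for 5 gene lists, with the percent of genes at or below a ratio on the y axis. The set of ribosome biogenesis genes lies to the right of all genes almost throughout, with a median of 0.38, and the cytosolic ribosomal protein genes to the left, with a median of -0.33. The x axis is cut at -1.5 and 1.5, beyond which only genes outside the 4 named lists lie.

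Cytosolic ribosomal protein genes, which encode the proteins of the ribosome, were lower in library 3 than in library 2 in 78 of 80 cases, at a median ratio of 0.80. Mitochondrial ribosomal protein genes were lower in 55 of 76 cases, at a median of 0.93. Another 110 ribosome biogenesis genes past the filter, taken from the same pathway, had a median ratio of 1.21, with 88 above 1. Among these, Ltv1, an assembly factor of the small subunit, stood at 11.2, 18.01 and 33.9 CPM in libraries 1, 2 and 3, a ratio of library 3 to library 2 of 1.88 (1.67 to 2.13). Wdr46, a scaffold of the small subunit precursor, stood at 26.8, 22.3 and 39.1 CPM and had a ratio of 1.75 (1.57 to 1.96), and Tsr1, which acts late in small subunit maturation, at 11.9, 19.1 and 32.6 CPM with a ratio of 1.703 (1.51 to 1.92). All 3 were highest in library 3. The lowest ratios of this list belonged to 3 subunits of the RNA exosome, which trims and degrades RNA. Exosc2 stood at 128, 102 and 62.1 CPM (ratio 0.611 (0.5705 to 0.655)), Exosc8 at 67.8, 125 and 82.7 CPM (0.659 (0.6202 to 0.7002)) and Exosc5 at 61.1, 92.1 and 67.9 CPM (0.738 (0.689 to 0.7898)). These 3 genes thus went against the median of their list. Of 12 listed host genes of small nucleolar RNAs, only 3 were among the genes counted, so the rest could not be read. Of the 2 past the filter, Snhg12 had a ratio of 1.72 (1.59 to 1.85) and Snhg6 of 1.37 (1.23 to 1.52). A list of 17 genes past the filter that are known MYC targets outside the ribosome had a median ratio of 1.04, with 9 above 1.

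Other genes also differed between these libraries, and their values stand here for the whole set. At 2000 UMIs per cell, 21 immediate early genes, which respond first to a stimulus or to handling, summed to a mean of 6.97, 7.71 and 62.9 UMIs per cell in libraries 1, 2 and 3, and 7 heat shock genes to 1.42, 2.82 and 5.83. With CPM scaled to the UMIs outside the early, heat shock, mitochondrial and ribosomal protein genes, the median log2 ratio of the set in library 3 to library 2 was 0.39, against 0.38. At 2000 UMIs per cell it was 0.41 with all cells and 0.34 with cells limited to those without a UMI of any of 40 replication and mitosis genes. In these limited cells, 185 of them in library 2, 13 of 35 genes were at least 1.5 times higher, where 13.4% of all genes were. Nop14 alone was at least 1.5 times lower, and the share of all genes that were is not given. It rests on 23 UMIs in these cells of library 2, and over all cells it was 1.32 times (1.19 to 1.46) as high in library 3 as in library 2. Whether handling or time after injury had a part in the difference was not tested, and the 2 cannot be told apart with 1 library per group.

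**Figure D2:**
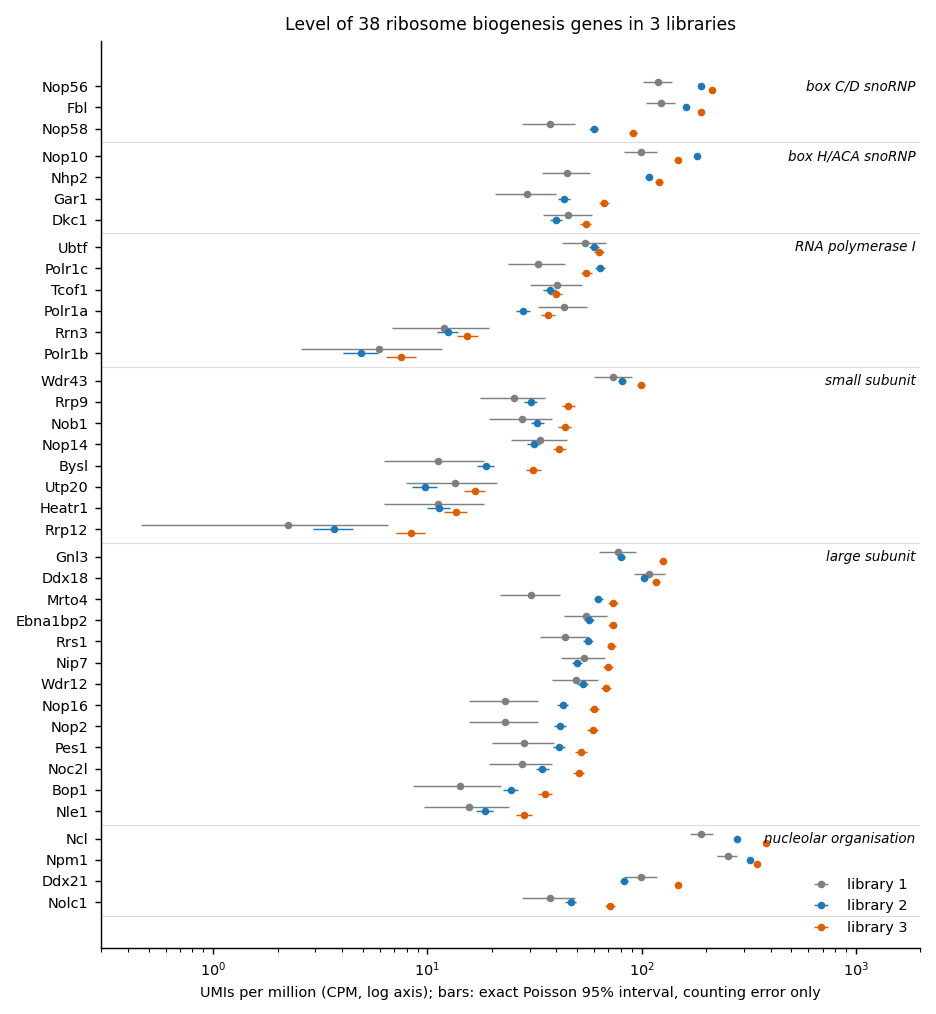
Level of each of the 38 genes in library 1 (grey), 2 (blue) and 3 (orange), in CPM on a log axis, grouped by role, with bars for the exact Poisson 95% interval. By the values alone, library 3 is the highest for 34 of the 38 genes, library 2 for Nop10 and Polr1c and library 1 for Polr1a and Tcof1. The share of all genes that are highest in library 3 was not counted. The bars of library 1 are the widest, as it holds 1343055 UMIs against 24097543 in library 2. They include the library 3 value for some genes, such as Tcof1 and Ddx18.

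The nucleolar proteins of broad function were all higher in library 3 than in library 2. Ncl, which encodes nucleolin, a binder of pre-rRNA (ENSMUSG00000026234; chromosome 1, 86344719 to 86359400, minus strand; here and below by GENCODE M21, GRCm38), was counted at 189.9, 279.7 and 382 CPM in libraries 1, 2 and 3. It was highest in library 3, 1.36 times (1.32 to 1.41) library 2, and library 2 was in turn 1.47 times (1.3 to 1.68) library 1. Npm1, a nucleolar chaperone, was counted at 252, 319 and 347 CPM, a smaller difference between libraries 3 and 2 of 1.09 times (1.05 to 1.12). Nolc1, which binds snoRNPs, stood at 37.2, 46.6 and 71.3 CPM, 1.53 times (1.41 to 1.65) higher in library 3 than in library 2. The order of the 3 libraries was the same for these 3 genes, although the intervals of libraries 1 and 2 overlap for Nolc1.

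Ddx21, an RNA helicase of the nucleolus linked to transcription by RNA polymerases I and II (ENSMUSG00000020075; chromosome 10, 62580251 to 62602281, minus strand), was counted at 99.03, 82.7 and 148 CPM, with intervals of 82.9 to 117, 79.1 to 86.4 and 143 to 153 CPM. It was 1.79 times (1.69 to 1.89) as high in library 3 as in library 2. Unlike Ncl, it was not higher in library 2 than in library 1, with a ratio of 0.835 (0.7001 to 1.003). At 2000 UMIs per cell, 16.7%, 15.4% and 23.8% of the cells of libraries 1, 2 and 3 had a Ddx21 UMI.

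Of the snoRNPs, the box C/D proteins, which belong to the particles that methylate rRNA, summed to 279, 409 and 493 CPM in libraries 1, 2 and 3. Nop58, one of their core proteins, stood at 37.2, 59.6 and 91.1 CPM and was 1.53 times (1.42 to 1.64) as high in library 3 as in library 2. Its partner Nop56 stood at 119, 188 and 212 CPM, a ratio of 1.13 (1.08 to 1.18), and Fbl, the methyltransferase, at 123, 161 and 189 CPM, a ratio of 1.18 (1.13 to 1.23). The proteins of 1 particle thus differed in size of change, and the interval of Nop58 did not overlap those of the other two.

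The box H/ACA proteins, which belong to the particles of pseudouridylation and also serve telomerase, did not move together. Their sum was 218, 372 and 388 CPM, a ratio of library 3 to library 2 of 1.04 (1.01 to 1.08). Gar1 stood at 29.04, 43.5 and 66.4 CPM and was 1.53 times (1.41 to 1.66) as high in library 3 as in library 2. Dkc1, the pseudouridine synthase, stood at 45.4, 39.8 and 54.8 CPM (1.38 times (1.26 to 1.505)) and Nhp2 at 44.7, 108 and 120.2 CPM (1.12 times (1.05 to 1.18)). Nop10, the smallest protein of the particle, went the other way, at 99.03, 181 and 147 CPM, so that library 3 was 0.8104 times (0.773 to 0.8495) library 2. Nop10 was one of the 2 genes of the set that were lower in library 3 than in library 2.

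The genes of RNA polymerase I and its factors differed little in sum between the libraries. They summed to 188, 206 and 217 CPM in libraries 1, 2 and 3, with ratios of 1.05 (1.01 to 1.098) for library 3 to library 2 and 1.09 (0.965 to 1.247) for library 2 to library 1. Polr1a, the largest subunit, stood at 43.2, 27.97 and 36.6 CPM, 1.31 times (1.18 to 1.46) as high in library 3 as in library 2. Polr1c, which RNA polymerase III shares, stood at 32.8, 63.9 and 55.1 CPM and was the other gene lower in library 3, 0.863 times (0.797 to 0.933) library 2. Rrn3, an initiation factor, stood at 11.9, 12.4 and 15.4 CPM, a ratio of 1.24 (1.05 to 1.46). The ratios of Ubtf, which binds ribosomal DNA, and Tcof1, a nucleolar partner of the polymerase, were 1.05 (0.975 to 1.14) and 1.07 (0.968 to 1.18), and both intervals include 1. Polr1b, the second largest subunit, was under the filter, with 8, 118 and 149 UMIs in the 3 libraries, or 5.96, 4.897 and 7.54 CPM.

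The assembly factors of the small subunit had the highest ratio of library 3 to library 2 among the 6 roles, at 1.37 (1.32 to 1.43) for their sums of 198, 218 and 299.8 CPM in libraries 1, 2 and 3. The interval overlaps those of the large subunit factors and the nucleolar proteins of broad function, so these roles cannot be ranked. Bysl, a factor of late small subunit precursors, stood at 11.2, 18.7 and 31.2 CPM, 1.66 times (1.47 to 1.88) as high in library 3 as in library 2. Utp20, a large protein of the early precursor, stood at 13.4, 9.71 and 16.6 CPM, a ratio of 1.71 (1.44 to 2.03). Rrp12, which acts in the export of precursors, was under the filter, with 3, 88 and 165 UMIs, or 2.23, 3.65 and 8.35 CPM, and had a ratio of 2.29 (1.75 to 2.995). Bysl and Rrp12 rested on 15 and 3 UMIs in library 1, so that their levels there are known only to within 6.25 to 18.4 and 0.461 to 6.53 CPM. Rrp9, a protein of the U3 snoRNP, stood at 25.3, 30.3 and 45.5 CPM (1.501 times (1.36 to 1.66) in library 3 against library 2). Nob1, the nuclease that makes the end of 18S rRNA, stood at 27.5, 32.5 and 43.7 CPM (1.34 times (1.22 to 1.48)), and the ratios of Nop14, Wdr43 and Heatr1, further proteins of the early precursor, were 1.32 (1.19 to 1.46), 1.23 (1.16 to 1.31) and 1.201 (1.01 to 1.43). All 8 genes of this role were higher in library 3 than in library 2, where 3768 of all 8130 genes past the filter were. All 8 intervals lay above 1, and the share of all genes with such an interval was not counted.

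All 13 assembly factors of the large subunit were likewise higher in library 3 than in library 2, where 3768 of all 8130 genes past the filter were. Their sums of 550.2, 665 and 885 CPM gave a ratio of 1.33 (1.302 to 1.36). Gnl3, the GTPase nucleostemin, stood at 77.4, 80.1 and 125 CPM, with no difference beyond its interval between libraries 1 and 2 and 1.57 times (1.48 to 1.66) as much in library 3 as in library 2. Nle1 stood at 15.6, 18.5 and 28.3 CPM (1.53 times (1.35 to 1.74)). Gnl3 and Nle1 were the genes of this role past 1.5 times. The 3 proteins of the PeBoW complex, which work together in cutting the large subunit precursor, had ratios of 1.45 (1.298 to 1.62) for Bop1, 1.26 (1.16 to 1.38) for Pes1 and 1.28 (1.19 to 1.39) for Wdr12. Nop2, a methyltransferase of rRNA, stood at 23.1, 41.6 and 58.98 CPM (1.42 times (1.301 to 1.54)), and its intervals in the 3 libraries did not overlap. Nop16 stood at 23.1, 42.8 and 59.9 CPM (1.401 times (1.29 to 1.52)) and Noc2l at 27.5, 34.4 and 50.8 CPM (1.48 times (1.35 to 1.62)). The intervals of Nop16 did not overlap either, while those of Noc2l overlap between libraries 1 and 2. The ratios of Nip7, Rrs1, Ebna1bp2 and Mrto4 lay between 1.17 and 1.398, and the smallest was that of Ddx18, an RNA helicase, at 1.13 (1.07 to 1.2). The annotation names 2 pseudogenes for Mrto4, so its reads may be shared with them, and processed copies of other genes under other names were not looked for.

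Between libraries 2 and 1 the set was mixed. The median ratio was 1.22 (log2 0.28), against 0.94 over all genes past the filter. Above 1 were 28 of the 36 genes, where 3501 of all 8130 genes were. Other lists stood higher than the set here, with medians of 1.31 for cytosolic ribosomal protein genes (72 of 80 above 1), 1.33 for mitochondrial ribosomal protein genes (61 of 76) and 1.81 for known MYC targets outside the ribosome (13 of 17). At 2000 UMIs per cell the median log2 ratio of the set was 0.26 with all cells and 0.18 with the cells without replication and mitosis UMIs. At least 1.5 times higher in library 2 were 10 of the 36 genes, where 12.3% of all genes were, and 1 gene, Polr1a, was at least 1.5 times lower, where 16.2% were. The genes with the largest ratios were Nhp2 at 2.41 (1.87 to 3.17), Mrto4 at 2.06 (1.51 to 2.88), Polr1c at 1.95 (1.45 to 2.69), Nop16 at 1.85 (1.298 to 2.74) and Nop10 at 1.83 (1.54 to 2.19). Polr1a stood at 0.648 (0.495 to 0.862), and Utp20 at 0.725 (0.448 to 1.24), an interval that includes 1. By role, the box H/ACA proteins had a ratio of 1.71 (1.52 to 1.92) and the small subunit factors of 1.102 (0.974 to 1.252), the reverse of their order between libraries 3 and 2. In library 3 compared with library 1, 20 of the 36 genes were at least 1.5 times higher, where 11.1% of all genes were, and 0 at least 1.5 times lower, where 18.1% were, with a median ratio of 1.59. These comparisons share library 1 or 2 with each other, and library 1 rests on 3 to 338 UMIs per gene of the set.

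The genes with the largest ratios of library 2 to library 1 mostly encode short proteins, a pattern noticed only after the values were seen. All genes past the filter with an annotated coding sequence (7944 of 8130) were therefore split into tertiles by their longest coding sequence. The shortest tertile, up to 957 bases, had a median log2 ratio of library 2 to library 1 of 0.13, the middle tertile of -0.07 and the longest tertile, from 1738 bases, of -0.30. The 8, 11 and 17 genes of the set in these tertiles had medians of 0.71, 0.25 and 0.13. The set thus fell with coding length as all genes did and lay above all genes in each tertile. Between libraries 3 and 2 the tertiles of all genes had medians of -0.11, 0.03 and 0.02 and those of the set 0.29, 0.45 and 0.38, without such an order. Depth differs between libraries 1 and 2 as well (medians of 2218 and 5952 UMIs per cell), and its part in the pattern was not tested.

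**Figure D3:**
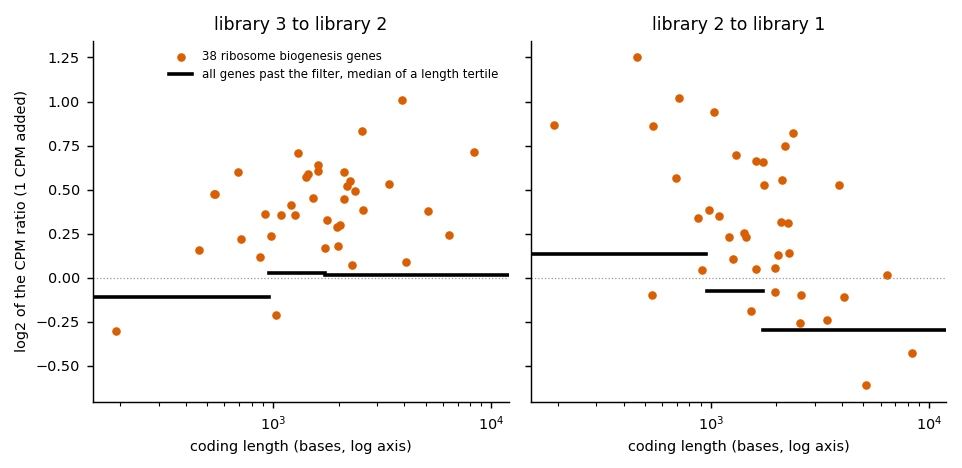
Log2 CPM ratio of each of the 38 genes (orange points, 1 CPM added) against the length of its longest coding sequence in bases on a log axis, for library 3 to library 2 (left) and library 2 to library 1 (right). The black lines are the medians of all genes past the filter in each length tertile, which fall from 0.13 to -0.30 on the right and stay between -0.11 and 0.03 on the left.

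Libraries of different depth were next compared cell by cell at equal depth, with each cell thinned to 2000 UMIs and shallower cells left out, which left 408, 3569 and 3284 cells. The mean sum of the 38 genes was 4.12 UMIs per cell (3.92 to 4.32) for library 1, 5.05 (4.98 to 5.13) for library 2 and 6.303 (6.22 to 6.39) for library 3. The ratio of library 3 to library 2 was 1.247 (1.22 to 1.27) and that of library 2 to library 1 was 1.23 (1.17 to 1.29). The 5th, 50th and 95th percentiles over cells were 1, 4 and 9 UMIs in library 1, 2, 5 and 9 in library 2 and 2, 6 and 12 in library 3. The distributions overlap widely, with the percentiles of library 3 at or above those of library 2. No UMI of the set was found in 8 of 408 cells (1.96%), 29 of 3569 (0.81%) and 10 of 3284 (0.30%).

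**Figure D4:**
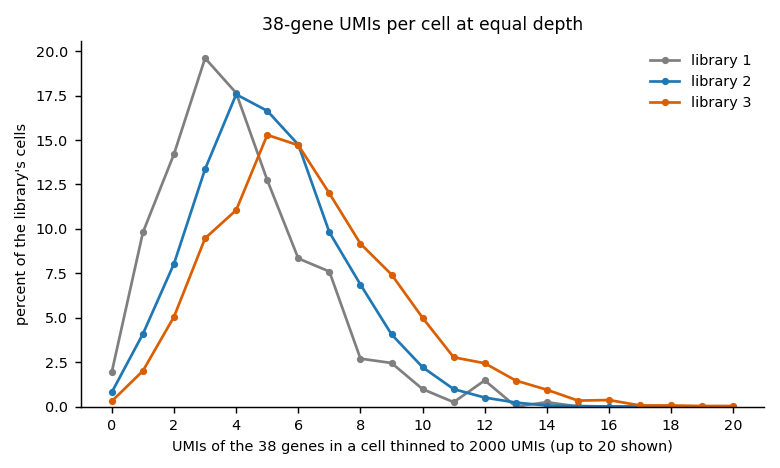
Percent of the cells of each library (y axis) by the number of UMIs of the 38 genes in a cell thinned to 2000 UMIs (x axis, up to 20). Each library has a single main peak, and the medians are 4, 5 and 6 UMIs in libraries 1, 2 and 3.

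The sum varied more between cells of library 3 than counting alone would give. The variance of the sum was 1.36 times its mean in library 3, 1.08 times in library 2 and 1.41 times in library 1, where a Poisson count has a variance equal to its mean. The median over single genes of the same ratio was 1.01, 1.01 and 1.03. At the low counts of single genes an excess of this size cannot be seen. Cells of library 3 were split into tertiles by their UMIs before thinning. At equal depth the sum was 5.73 (5.59 to 5.87) in the lowest, 6.14 (5.99 to 6.29) in the middle and 7.05 (6.89 to 7.205) in the highest tertile, a ratio of the highest to the lowest of 1.23 (1.19 to 1.27). In library 2 it rose from 4.84 (4.72 to 4.97) to 5.33 (5.204 to 5.47), a ratio of 1.10 (1.06 to 1.14), and in library 1 the ratio was 1.09 (0.97 to 1.22). In libraries 2 and 3 the deeper cells thus gave a larger part of their UMIs to these genes. The ratio for cytosolic ribosomal proteins was 1.04 in library 3, below that of the set, and 1.08 in library 2, near it. For immediate early genes it was 1.19 in library 3, so that a rise with depth was not particular to the set, and 0.98 in library 2.

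Single genes were compared between these tertiles after the sums had been seen. In library 3, 14 of 36 genes with at least 50 UMIs in these cells were at least 25% higher in the highest tertile than in the lowest, where 10% of all such genes were. Above 1 were 33 of the 36, where 3651 of all 7493 such genes were. Of 114 other ribosome biogenesis genes, 76 were above 1 and 23 at least 25% higher. Ncl had 889 against 635 UMIs per 1000 cells in the highest and lowest tertile, a ratio of 1.401 times (1.27 to 1.55), and Npm1 had 768 against 566 UMIs per 1000 cells, a ratio of 1.36 times (1.22 to 1.51). Nop58, Nop14, Rrp9 and Wdr43 had ratios of 1.42 times (1.15 to 1.76), 1.58 times (1.16 to 2.18), 1.41 times (1.07 to 1.86) and 1.37 times (1.13 to 1.67). The 3 genes below 1 belong to RNA polymerase I and its factors, with Polr1a at 0.836 times (0.601 to 1.16), Polr1c at 0.869 times (0.669 to 1.13) and Rrn3 at 0.778 times (0.458 to 1.31), all 3 intervals including 1. In library 2, 7 of 34 genes were at least 25% higher, where 15% of all genes were. Above 1 were 21 of the 34 and below it 13, where 4014 of all 7900 genes were above 1. The median ratio was 1.05, against 1.09 for cytosolic ribosomal protein genes. Nop58 at 1.47 times (1.16 to 1.89), Ddx21 at 1.44 times (1.18 to 1.77) and Ncl at 1.31 times (1.17 to 1.47) were among the 7. Polr1a at 0.586 times (0.417 to 0.819) and Mrto4 at 0.754 times (0.593 to 0.956) had intervals below 1. Nop14, Rrp9 and Wdr43 were at 0.95 times (0.681 to 1.32), 1.02 times (0.716 to 1.44) and 0.889 times (0.713 to 1.11) in library 2, intervals that include 1. Ddx21 in library 3 was at 1.12 times (0.953 to 1.31), an interval that includes 1.

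The cells of library 3 with the most immediate early gene UMIs held less of the set. The sum was 6.504 (6.35 to 6.66) in the tertile of cells with the fewest early gene UMIs, 6.56 (6.41 to 6.71) in the middle tertile and 5.85 (5.705 to 5.99) in the tertile with the most, a ratio of the last to the first of 0.90 (0.87 to 0.93). The lowest and middle tertiles had overlapping intervals, so the difference lay in the top tertile. In library 2 the ratio was 0.95 (0.91 to 0.98). Cytosolic ribosomal proteins were lower as well, with ratios of 0.906 and 0.955. The lowest and highest tertiles of library 3 held 37.9 and 89.6 early gene UMIs per cell, of 2000 in all.

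The set was then read by Myc in single cells. At 2000 UMIs a Myc UMI was found in 23 of 408 cells of library 1 (5.64%, 3.61 to 8.34%), 271 of 3569 of library 2 (7.59%, 6.75 to 8.51%) and 518 of 3284 of library 3 (15.8%, 14.5 to 17.1%). A cell without a Myc UMI at this depth may still express Myc. Nearly all cells are microglia, so no cell type without Myc was at hand to give the share that free RNA alone would give.

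Within library 3 the 518 cells with Myc held slightly more of the set, and the size of this difference depended on which UMIs the thinning drew. The sum was 6.67 (6.45 to 6.89) UMIs per cell with Myc and 6.24 (6.14 to 6.33) in the 2766 cells without, a ratio of 1.07 (1.03 to 1.11). With a second random draw of 2000 UMIs, which also redrew the classes, the ratio was 1.02 (0.981 to 1.06), an interval that includes 1. With all UMIs of the cells of the first draw it was 1.06 (1.03 to 1.08). At 4000 UMIs per cell the ratio was 1.06 (1.04 to 1.08), and at 1000 UMIs it was 1.02 (0.954 to 1.096). With Myc read from all UMIs of a cell, a class not at equal depth, it was 1.07 (1.04 to 1.10). By the number of Myc UMIs in the cell, the sum was 6.62 (6.38 to 6.86) with 1 and 7.09 (6.41 to 7.81) with 2, on 448 and 57 cells, and the interval of the last class includes the value of cells with 1 UMI. In the tertile of library 3 with the fewest UMIs per cell the ratio was 0.944 (0.877 to 1.02), in the middle tertile 1.08 (1.01 to 1.15) and in the highest 1.13 (1.07 to 1.195). In this draw the cells with Myc thus held more of the set in the middle and highest tertiles, while the interval of the lowest tertile includes 1. The tertiles were not read in the second draw. In library 2 the sum was 5.07 in cells with Myc and 5.05 in cells without, a ratio of 1.003 (0.948 to 1.06).

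**Figure D5:**
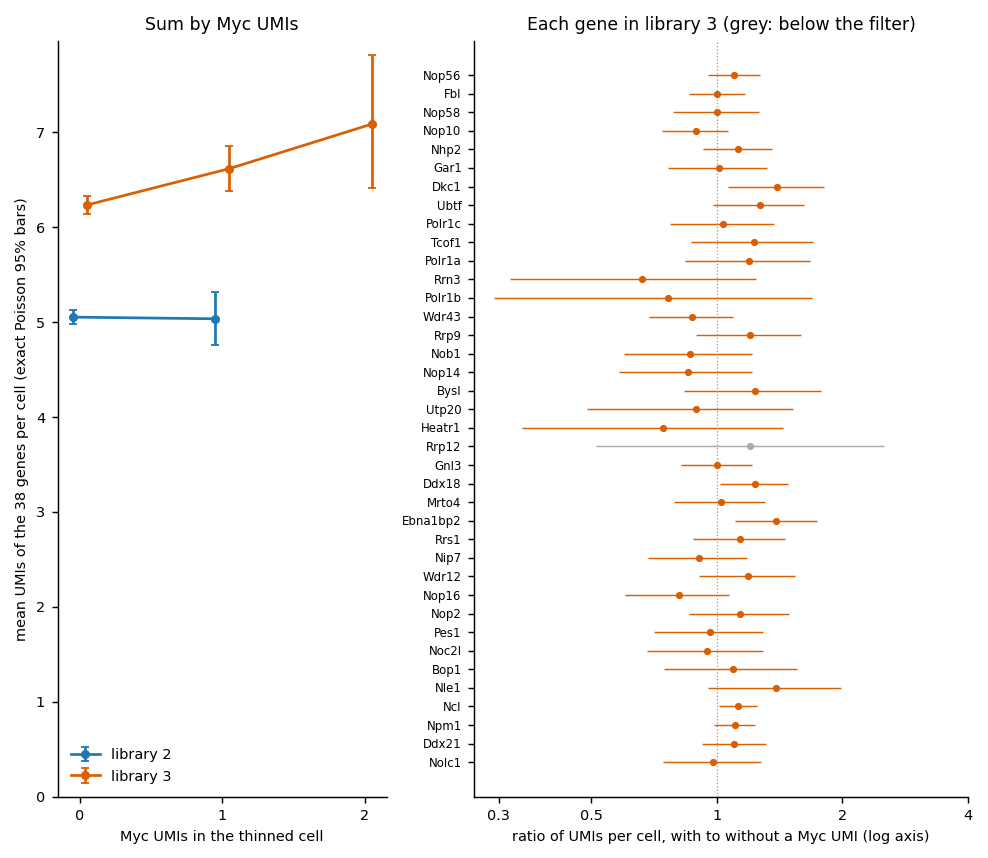
Left: mean UMIs of the 38 genes per cell thinned to 2000 UMIs by the number of Myc UMIs in the cell, for classes of at least 50 cells, with exact Poisson 95% bars. Right: for each gene in library 3, the ratio of UMIs per cell in the 518 cells with a Myc UMI to that in the 2766 cells without, on a log axis with exact 95% bars. In cells without a Myc UMI the mean is 5.05 in library 2 and 6.24 in library 3, and such cells may still express Myc. Most bars on the right include 1.

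Gene by gene, 4 of 37 genes with at least 50 UMIs in these cells were at least 25% higher in cells with Myc in library 3, or 10.8%, where 11.5% of all genes were. Lower by the same factor were 3 genes, Rrn3, Heatr1 and Polr1b, where 13.3% of all genes were. With 518 cells in the class, genes without a difference also pass 25% by counting. The set was thus near the background by the first count and under it by the second, though the background was not matched to the set by UMIs. Above 1 in this draw were 23 of the 37 genes, where 4258 of all 8464 genes were, at median ratios of 1.04 and 1.001. The 4 genes at least 25% higher were Dkc1 at 1.39 times (1.06 to 1.803), Ebna1bp2 at 1.39 times (1.11 to 1.73), Nle1 at 1.39 times (0.95 to 1.99) and Ubtf at 1.27 times (0.981 to 1.62). Dkc1 had 143 against 103 UMIs per 1000 cells in cells with and without Myc, and Ebna1bp2 had 195 against 140.3 UMIs per 1000 cells. The intervals of these pairs lie above 1, while those of Nle1 and Ubtf include it. Intervals above 1 were also found for Ddx18 at 1.23 times (1.02 to 1.48) and Ncl at 1.12 times (1.01 to 1.247), and no gene of the set had an interval below 1. These intervals were read from 1 random draw only, and the share of all genes with an interval off 1 was not counted. With the second draw 3 genes of the set were at least 25% higher, where 10.4% of all genes were. Ddx21, Nop58 and Gnl3, which stood out between libraries 3 and 2, had ratios of 1.102 times (0.921 to 1.31), 0.9997 times (0.783 to 1.26) and 1.003 times (0.822 to 1.21), all of which include 1. Of the genes with CACGTG in the promoter window, Nop2 was at 1.14 times (0.858 to 1.49), Pes1 at 0.964 times (0.708 to 1.29), Wdr43 at 0.872 times (0.688 to 1.09), Utp20 at 0.89 times (0.489 to 1.52) and Rrn3 at 0.66 times (0.318 to 1.24), and Nle1, given above, was the highest. The 6 genes lay on both sides of 1, and all 6 intervals include it.

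By role, the nucleolar proteins of broad function had a ratio of 1.102 (1.03 to 1.18) in cells with Myc of library 3 and the large subunit factors of 1.08 (1.01 to 1.16), with intervals above 1. The RNA polymerase I genes had the highest ratio, 1.12 (0.973 to 1.29), and the intervals of this role, the box C/D proteins at 1.04 (0.947 to 1.15), the box H/ACA proteins at 1.05 (0.941 to 1.17) and the small subunit factors at 0.959 (0.844 to 1.09) include 1. Other lists of the same cells stood at 1.17 (1.07 to 1.28) for DNA replication genes, 1.04 (1.01 to 1.08) for known MYC targets outside the ribosome, 1.05 (1.01 to 1.09) for heat shock genes, 1.02 (1.01 to 1.03) for immediate early genes, 1.003 (0.976 to 1.03) for the other ribosome biogenesis genes and 0.994 (0.987 to 1.001) for cytosolic ribosomal proteins. The other ribosome biogenesis genes thus did not differ beyond counting error between cells with and without Myc. These ratios by role and by list were read from 1 random draw only. With the second draw the ratio of the whole set was 1.02 (0.981 to 1.06), so intervals that begin just above 1 may not hold. In library 2, 1 of 36 genes was at least 25% higher in cells with Myc, where 16% of all genes were, and 9 were lower by the same factor, where 18.9% were. The 1 higher gene was Utp20, at 1.74 times (0.716 to 3.67), and the 1 gene with an interval below 1 was Tcof1, at 0.495 times (0.234 to 0.925). Cells with Myc in library 3 had a median of 5834 UMIs before thinning and cells without 5750.5, and the part of depth in the ratio was not tested beyond the tertiles above.

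Library 2 held the most UMIs of 20 mitosis genes, at a mean of 1.70 per cell at 2000 UMIs, against 0.07 and 0.05 in libraries 1 and 3. The set was compared between classes of its cells. How many of these UMIs came from free RNA was not estimated, so a cell of a class need not be dividing. A cell was put in the mitotic class with at least 2 UMIs of 20 mitosis genes, in the replicating class with at least 2 UMIs of 20 DNA replication genes and under 2 of mitosis, and in the non-cycling class with 0 of both. The classes held 1458, 1024 and 185 cells, 902 cells lay between them, and they are ranges of a count and not cell types. Of the mitotic class 695 cells, and of the replicating class 504, had exactly 2 UMIs. The sum of the set was 4.86 (4.55 to 5.19) in non-cycling, 4.997 (4.86 to 5.13) in replicating and 5.16 (5.04 to 5.27) in mitotic cells. The ratios to non-cycling cells were 1.03 (0.957 to 1.104) and 1.06 (0.989 to 1.14), and both intervals include 1. With a second random draw of 2000 UMIs, which also redrew the classes, they were 1.096 (1.02 to 1.18) and 1.11 (1.03 to 1.19). These intervals lay above 1, so the draw decides whether the intervals include 1. The cells of library 3 in the non-cycling class had a higher sum than any class of library 2, at 6.06 (5.92 to 6.198).

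The replicating and non-cycling classes of library 3 were compared after the values had been seen, on 843 and 1239 cells. Replicating cells held 6.63 (6.45 to 6.802) UMIs of the set per cell, 1.09 (1.06 to 1.13) times non-cycling cells, an interval above 1. Within tertiles of UMIs per cell the ratio was 1.05 (0.9802 to 1.12) in the lowest, 1.02 (0.961 to 1.09) in the middle and 1.12 (1.06 to 1.19) in the highest, so that the interval lay above 1 in the deepest tertile alone. The medians before thinning were 6080 and 5574 UMIs. Gene by gene, 5 of 35 genes were at least 25% higher in replicating cells, where 10.3% of all genes were, and 0 lower by the same factor, where 7.96% were. The 5 genes were Bysl at 1.52 times (1.05 to 2.203), Rrn3 at 1.43 times (0.849 to 2.39), Noc2l at 1.38 times (1.04 to 1.82), Gar1 at 1.33 times (1.03 to 1.71) and Nhp2 at 1.28 times (1.06 to 1.53), and of these intervals that of Rrn3 includes 1.

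In replicating cells of library 2, 9 of 31 genes with at least 50 UMIs were at least 25% higher than in non-cycling cells, where 20% of all genes were, and 3 were lower by the same factor, where 14.3% were. In mitotic cells of library 2, 10 of 33 genes were higher, where 24% of all genes were, and 5 lower, where 15.9% were. The non-cycling class has 185 cells, so single genes rest on few UMIs here, and the shares of the set and of all genes are to be read together. By role, the nucleolar proteins of broad function had a ratio of mitotic to non-cycling cells of 1.201 (1.05 to 1.38), the highest of the 6 roles, and the RNA polymerase I genes of 0.806 (0.645 to 1.02), the lowest. The first interval lies above 1 and the second includes it. In the first role Npm1 stood at 1.42 times (1.13 to 1.81) and Ncl at 0.968 times (0.794 to 1.19). Nolc1 stood at 1.24 times (0.715 to 2.33) and Ddx21 at 1.55 times (0.985 to 2.59), so within this role the interval of Npm1 alone lay above 1. Outside it, Nop58 stood at 2.09 times (1.14 to 4.26) and Nop14 at 0.485 times (0.304 to 0.805), on 11 and 23 UMIs in non-cycling cells. In replicating cells the intervals of Nop58, Nip7 and Npm1 lay above 1 and that of Nop14 below it. The roles and single genes were read from 1 random draw only. Mitotic cells had a median of 6738 UMIs before thinning and non-cycling cells 5725, and the part of depth was not tested for single roles.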

How the data were processed

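Per the labels, UMI counts came from Cell Ranger 2.1.1 with mm10. The authors deposited raw counts of 27998 genes in 7522 cells, without normalization. The members and lists were chosen with earlier results of these data known. CPM is a gene's UMIs per 1000000 UMIs of a library, with exact Poisson intervals. Ratios of counts have exact conditional (Clopper-Pearson) intervals, log2 ratios had 1 CPM added, and a gene was called at 1.5 times between libraries and at 25% above between cell classes. With 1 library per group no test was made. Cells were thinned to 2000 UMIs without replacement (seed 1), which left out 201, 22 and 38 cells. Doublets had been excluded in the sort, which acts before cells enter droplets. Droplets that took up more than 1 cell were not looked for, as no doublet caller was run here. Genes named beyond the set were Myc, the 3 highest and 3 lowest other ribosome biogenesis genes by ratio and the snoRNA host genes past the filter. Positions and coding lengths are from GENCODE M21 (GRCm38). The ratio steps were tested on simulated counts, for library 3 to library 2 and for cells with and without Myc in library 3. Between libraries 3 and 2, changes to 0.5 and 2 times were found. Smaller changes between libraries, and ratios to library 1, were not simulated. Between cells with and without Myc, 24.3% of the genes left unchanged passed the fold in either direction, and some changed ones missed it. Scripts ran under Python 3.11.15 with scipy 1.17.1, numpy 2.4.6 and matplotlib 3.10.9. Alternatives were other cell filters, depths, seeds, pseudocounts, scalings, folds and classes.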

Additional observations from a re-analysis of the deposited data

How the results depend on the processing

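No paired analysis was possible because each group has 1 library. Of 119 values under an alternative, 94 stayed in place, 24 moved and 1 reversed, and the median log2 ratios between libraries kept their sign under each alternative run. The count of genes higher in library 3 than in library 2 was 3 with 5 CPM added (2.39% of all genes), 23 where 25% sufficed (11.7%), 0 where 2 times was needed (1.32%) and 13, with 1 lower, in non-cycling cells at 2000 UMIs (13.4%). The ratio of cells with Myc to cells without in library 3 reversed to 0.944 in the tertile with the fewest UMIs. The interval there, 0.877 to 1.02, includes 1. This ratio moved to 1.02 at 1000 UMIs and with the second seed and to 1.12 with at least 2 Myc UMIs. It was 1.03 and 1.14 in the lowest and middle tertiles by early gene UMIs and 1.13 in the deepest tertile. The count of genes higher in cells with Myc was 2 at 1000 UMIs (18.1% of all genes) and with Myc read from all UMIs of the cell (7.46%), 1 at 4000 UMIs (6.07%), 11 with at least 2 Myc UMIs (24.99%) and 0 at a fold of 1.5 (2.97%). The ratio of replicating to non-cycling cells was 1.12 in the deepest tertile of library 2. With the second seed it was 1.096 (1.02 to 1.18), and that of mitotic cells was 1.11 (1.03 to 1.19). These intervals no longer include 1, though both values are counted among the 94 that stayed in place. A value in place may thus still change whether its interval includes 1. In library 3 the ratio of replicating cells was 1.16 with at least 3 replication UMIs and 1.05 and 1.02 in the lowest and middle depth tertiles. The sum per cell in library 1 was 3.89 at 1000 UMIs (scaled to 2000), and without Npm1 and Ncl the sums were 3.18, 3.91 and 4.89 in libraries 1, 2 and 3. The cause of these changes was not tested, except that leaving out genes lowers a sum. The restriction to non-cycling cells, the removal of cells with other blood cell markers, the CPM of all UMIs, the scaling outside cycle genes, the depth tertiles of the replicating and mitotic classes and the values of replicating cells in library 3 were chosen after seeing the data.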
